A study of Mus musculus with 2 samples.

Results

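The 7 genes described here encode the parts of the MHC class II presentation pathway: the chains H2-Aa, H2-Ab1 and H2-Eb1, the invariant chain Cd74, the transactivator Ciita, and the DM pair H2-DMa and H2-DMb1. They were chosen by symbol, and all 7 of the 7 symbols were found among the 56748 genes of both count matrices. A single Nat10 cKO library and a single WT library were made from C57BL/6 bone marrow after lineage depletion (Lin- cells), with droplet-based capture and sequencing of the 3′ ends of transcripts. The gene Nat10 encodes the enzyme that places N4-acetylcytidine (ac4C) in RNA, and the study asks what its loss does to stem cell maintenance and differentiation. The series text names 5 mice, WT or Nat10 cKO, but no label ties a cell to a mouse, and neither the Cre that drives the conditional knockout nor the age of the mice is given in the sources used here. Lineage depletion with antibodies was shared by both groups, and it is meant to remove mature blood cells, among them cells that carry class II on their surface. With 1 library per genotype there is no replicate check and no test between genotypes; every interval is a 95% interval that covers counting error only.

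Class II molecules carry peptides from taken-up material to the cell surface, where helper T cells read them. An alpha and a beta chain pair in the endoplasmic reticulum around the invariant chain Cd74, which blocks the peptide groove and leads the complex to lysosomes. There proteases trim Cd74 to a short peptide, and H2-DM, the dimer of H2-DMa and H2-DMb1, exchanges that peptide for an antigen. Ciita does not bind DNA itself; it is recruited to the promoters of these genes by a complex of RFX factors on the X box and NF-Y on the Y box. Dendritic cells and B cells make class II constitutively, macrophages and monocytes on induction, and plasma cells lose Ciita when they differentiate.

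Promoter windows from RefSeq (build GRCm38.p6) were at hand for 4 of the 7 members, H2-Aa, H2-Eb1, H2-DMa and H2-DMb1, each spanning 250 bases before to 50 after a gene start. The stretches below are shown because they hold letters of the X and Y elements, the elements through which Ciita is known to act. Capitals mark first a core of the X box, searched as GNAACT, and then a core of the Y box, searched as GATTGG, in the direction of transcription. The letters were chosen with these promoters in view.
H2-Aa, chr17:34287852-34287919, minus strand: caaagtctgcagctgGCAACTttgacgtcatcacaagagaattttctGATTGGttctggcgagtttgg
H2-Eb1, chr17:34305761-34305827, plus strand: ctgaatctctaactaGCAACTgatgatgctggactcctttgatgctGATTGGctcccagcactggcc
H2-DMb1, chr17:34153082-34153149, plus strand: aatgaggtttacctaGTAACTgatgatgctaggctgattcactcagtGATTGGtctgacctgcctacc
From the first base of one core to the first base of the other there were 32 bases in H2-Aa, 31 in H2-Eb1 and 32 in H2-DMb1. Among 32851 promoter windows, GNAACT was present on either strand in 42.8% and GATTGG in 16.1%, and both in this order at 25 to 40 bases in 83 windows (0.253%). H2-DMa had 2 windows, and neither held the cores at this spacing. A match describes letters and no binding was measured.

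A barcode was kept with 1000 or more UMIs (unique molecular identifiers, each counting 1 captured transcript), 500 or more genes and no more than 10% of UMIs from mitochondrial genes. There were 11239 kept barcodes in the Nat10 cKO library and 12537 in the WT library, with medians of 21119 and 18600 UMIs. Nat10 itself had 10315 UMIs (38.6 CPM, the level scaled to the total UMIs) in the cKO library, against 13395 UMIs (47.1 CPM) in the WT library, a log2 ratio of −0.29 (−0.32 to −0.25). In cells named by stem cell markers it had 32.8 CPM in cKO and 40.05 CPM in WT. The sources used here do not say which part of the gene is deleted, and a 3′ tag outside it checks nothing about the deletion. H2-Ea, the partner of H2-Eb1 that C57BL/6 mice are known not to express, had 0 UMIs in the cKO and 0 in the WT library, which allows a level of up to 0.0112 and 0.0105 CPM. A total of 67 barcode sequences occurred in both libraries, 40 of them among the kept barcodes of each, and the kept ones held 68 member UMIs in cKO and 88 in WT.

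Summed over all kept barcodes, the 7 members gave 31465 UMIs (117.7 CPM) in the cKO library and 43131 UMIs (151.6 CPM) in the WT library. The cKO library was lower by 0.37 on the log2 scale (log2 ratio −0.37, −0.39 to −0.34), while the median of all 21476 genes with at least 50 UMIs lay at −0.10. Of the 3 chains, H2-Aa, the alpha chain of the I-A molecule, had 2028 UMIs (7.58 CPM) in cKO and 3827 UMIs (13.5 CPM) in WT. Its log2 ratio was −0.83 (−0.91 to −0.75), the second lowest among the members.

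H2-Ab1, the beta chain that pairs with H2-Aa, had 5094 UMIs in cKO and 6680 in WT, a log2 ratio of −0.30 (−0.35 to −0.25). The ratio of H2-Eb1, the beta chain of I-E, was −0.18, with 1932 UMIs in cKO and 2321 in WT. The invariant chain Cd74 had 10214 UMIs (38.2 CPM) in cKO against 11000 UMIs (38.7 CPM) in WT, with an interval of the log2 ratio from −0.06 to 0.02, and its sign turned with TMM scaling (0.08) and median-of-ratios scaling (0.08). The near equality depended on which cells were counted: the ratio was −0.50 without plasma-like cells, −0.67 without plasma-like and pro-B/pre-B-like cells, 0.36 without dendritic-like cells and 0.42 without barcodes of at least 50 member UMIs. The 2 chains of the I-A molecule therefore had different ratios, and Cd74 over all kept barcodes lay above the median of all genes.

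Ciita, the rarest of the 7, had 311 UMIs (1.16 CPM) in cKO and 436 UMIs (1.53 CPM) in WT, a log2 ratio of −0.40 (−0.61 to −0.19). It was −1.18 without conventional dendritic-like cells and −0.88 without barcodes of at least 50 member UMIs. H2-DMa had 10134 UMIs (37.9 CPM) in cKO and 14869 UMIs (52.3 CPM) in WT, a log2 ratio of −0.46. H2-DMb1 was lowest, with 1752 UMIs (6.55 CPM) in cKO and 3998 UMIs (14.1 CPM) in WT and a log2 ratio of −1.10 (−1.18 to −1.02). H2-DMb1 has a near-identical neighbour, H2-DMb2, so the split of their reads is uncertain; H2-DMb2 had 192 UMIs in cKO and 309 in WT. A fold of 1.5, the size used below to call a value lower or higher, was passed by 2 of the 7 members, H2-Aa and H2-DMb1, both lower in cKO, against a background of 13% of all genes. At 2-fold the count was 1, H2-DMb1, against 3.88%. None was higher, against a background of 5.94%. All 7 were lower in cKO by some amount in CPM, as were 61.1% of all genes, but with TMM or median-of-ratios scaling Cd74 was not.

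The pathway beyond the members was described from 5 lists, over all kept barcodes and with the same 1.5-fold rule, under which 13% of all genes were lower in cKO and 5.94% higher. Of 4 other class II, DM and DO chains, 2 were lower in cKO: H2-Ob, a chain of the DM inhibitor H2-DO (615 UMIs in cKO, 1028 in WT, log2 ratio −0.65), and H2-DMb2 (−0.60). H2-Oa, its partner in H2-DO, was at −0.26 and H2-Eb2 at 0.53 on 34 UMIs in cKO and 25 in WT. None of 7 genes of the promoter complex passed 1.5-fold; Rfxap, a subunit of RFX, lay at 0.39, Nfyb at 0.06, Nfyc at −0.25 and Rfx5 at −0.32.

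Of 9 lysosomal genes, 4 were lower in cKO, beside 13% of all genes: Lgmn, an asparagine endopeptidase (−1.03), Ctsh with 4872 UMIs in cKO and 10367 in WT, Ctss, the protease that makes the last cuts in Cd74 (4096 UMIs in cKO, 8565 in WT, −0.97), and Ctsb (−0.61). Ctsl, the cathepsin that trims Cd74 in thymic epithelium, was at 0.00 and Ctsz at 0.07. Of 7 genes of turnover and co-stimulation 6 were lower, beside the same 13%. Cd86, a ligand of CD28 on T cells, had 1301 UMIs in cKO and 4926 in WT (−1.83), and Marchf1, a ubiquitin ligase that removes class II from the surface, had 1861 in cKO and 4492 in WT (−1.18). Cd80 (−0.65) and Marchf8 (−0.16) lay at the other end of that list. Of 11 genes linked to Ciita induction, 2 were lower, among them Irf8 (−1.12), and Prdm1, which represses Ciita in plasma cells, lay at −0.01 and Irf4 at 0.23. No gene of these 5 lists was higher in cKO past 1.5-fold. The median log2 ratio was −0.43 for the other chains, −0.19 for the promoter complex, −0.33 for the lysosomal genes, −0.88 for turnover and co-stimulation and −0.27 for Ciita induction, beside −0.40 for the 7 members and −0.10 for all genes tested.

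Cells were clustered without the 7 members and 4 related chains, so that class II did not define the classes, and clusters were named by marker genes, with "-like" because no protein was measured. Called doublets were removed, which left 10695 cKO and 11945 WT cells. Unnamed clusters held 3473 cKO and 3829 WT cells. Conventional dendritic-like cells were 0.262% of the cKO cells and 0.871% of the WT cells, and held 26.9% of the cKO library's member UMIs and 33.0% of the WT library's. Monocyte-like cells were 4.54% of cKO and 10.6% of WT cells and held 10.8% and 25.9% of the member UMIs in cKO and WT. Plasma-like cells held 15.3% in cKO and 5.81% in WT, GMP-like (granulocyte-monocyte progenitor) cells 12.8% and 9.81%, and pro-B/pre-B-like cells 3.43% and 0.241%, cKO before WT in each.

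Scaled to all UMIs of a library, monocyte-like cells contributed 12.9 CPM of class II in cKO and 40.02 CPM in WT. Dendritic-like cells contributed 32.4 CPM in cKO and 50.9 CPM in WT, and plasma-like cells 18.4 CPM in cKO and 8.98 CPM in WT. The differences of cKO minus WT were −27.1 CPM for monocyte-like and −18.5 CPM for dendritic-like cells, against 9.44 CPM for plasma-like and 3.76 CPM for pro-B/pre-B-like cells. When the cKO clusters were weighted by the WT library's share of UMIs in each cluster, the summed log2 ratio was 0.051 in place of −0.37. In the whole library, fewer cells of a type and less RNA per cell cannot be told apart.

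**Figure D1:**
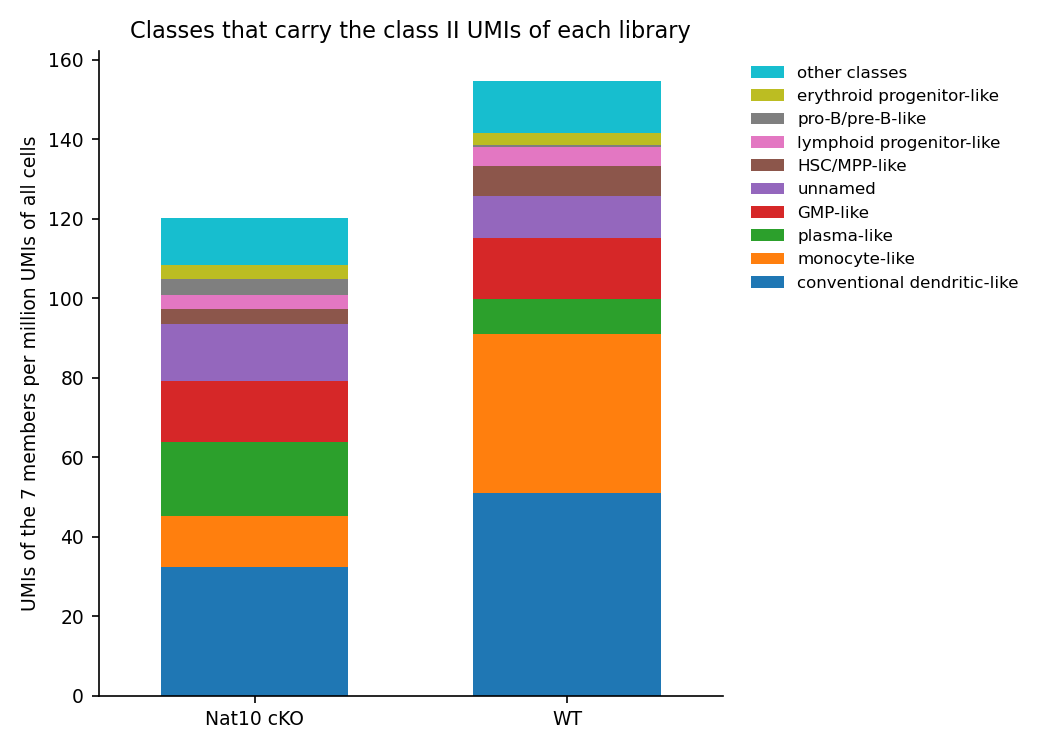
Contribution of each cell class to the summed level of the 7 members, in CPM over all singlet cells of a library (y axis), with Nat10 cKO at the left and WT at the right. Monocyte-like cells gave 12.9 CPM in cKO and 40.02 CPM in WT; plasma-like cells gave 18.4 CPM in cKO and 8.98 CPM in WT.

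The UMIs were held by few cells in both libraries. The 107 cKO cells and 119 WT cells at the top, 1% of each library, held 45.6% of the member UMIs in cKO and 45.6% in WT, and 48.6% of cKO cells and 46.8% of WT cells had none. At least 50 member UMIs were found in 80 cKO cells and 97 WT cells. Of these, 19 in cKO and 51 in WT were dendritic-like, 41 and 22 plasma-like, and 4 and 20 monocyte-like. The highest single cell had 839 member UMIs in cKO and 612 in WT, both in the same dendritic-like cluster. With cells thinned at random to 2000 UMIs each, 167 of 9541 cKO cells (1.75%) and 258 of 9652 WT cells (2.67%) had UMIs of at least 2 members, a share ratio of 0.655 (0.536 to 0.799), which turned to 1.16 without dendritic-like and monocyte-like cells. Thinning left out 1154 cKO and 2293 WT cells with too few UMIs; without it the shares were 22.3% and 27.4%. In erythroblast-like cells, which should lack class II, the thinned share was 0 of 1082 cells in cKO, which allows up to 0.277%, and 2 of 1351 (0.148%) in WT; their median depths were 5269 UMIs in cKO and 20067 in WT.

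The level per class differed widely. The sum of the 7 members was 20453 CPM in cKO and 7224 CPM in WT in conventional dendritic-like cells, 2368 and 1568 CPM in plasma-like cells, 1734 and 846 CPM in pro-B/pre-B-like cells, and 240 and 556 CPM in macrophage-like cells, cKO first. The pro-B/pre-B-like value in WT came from 13 cells, of which 5 held 95.9% of the UMIs, and the ratio of 1.03 was 0.15 with every cell weighing alike. The macrophage-like value in cKO came from 12 UMIs in 19 cells, and the ratio of −1.16 was −0.46 without the 2 WT cells of at least 50 member UMIs. It was 296 CPM in cKO and 297 CPM in WT in monocyte-like cells. Neutrophil-like cells, 31 in cKO and 34 in WT, gave only 3 member UMIs in cKO and 6 in WT. Among larger classes the lowest were erythroblast-like cells with 14.7 CPM in cKO and 13.5 CPM in WT and erythroid progenitor-like cells with 18.4 CPM in cKO and 21.1 CPM in WT. Neighbours in this order whose counting intervals met included monocyte-like and macrophage-like cells in cKO, and basophil/mast-like and T/NK-like cells in WT. In HSC/MPP-like cells, named by markers of stem cells and multipotent progenitors, the sum was 139 CPM in cKO and 148 CPM in WT.

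**Figure D2:**
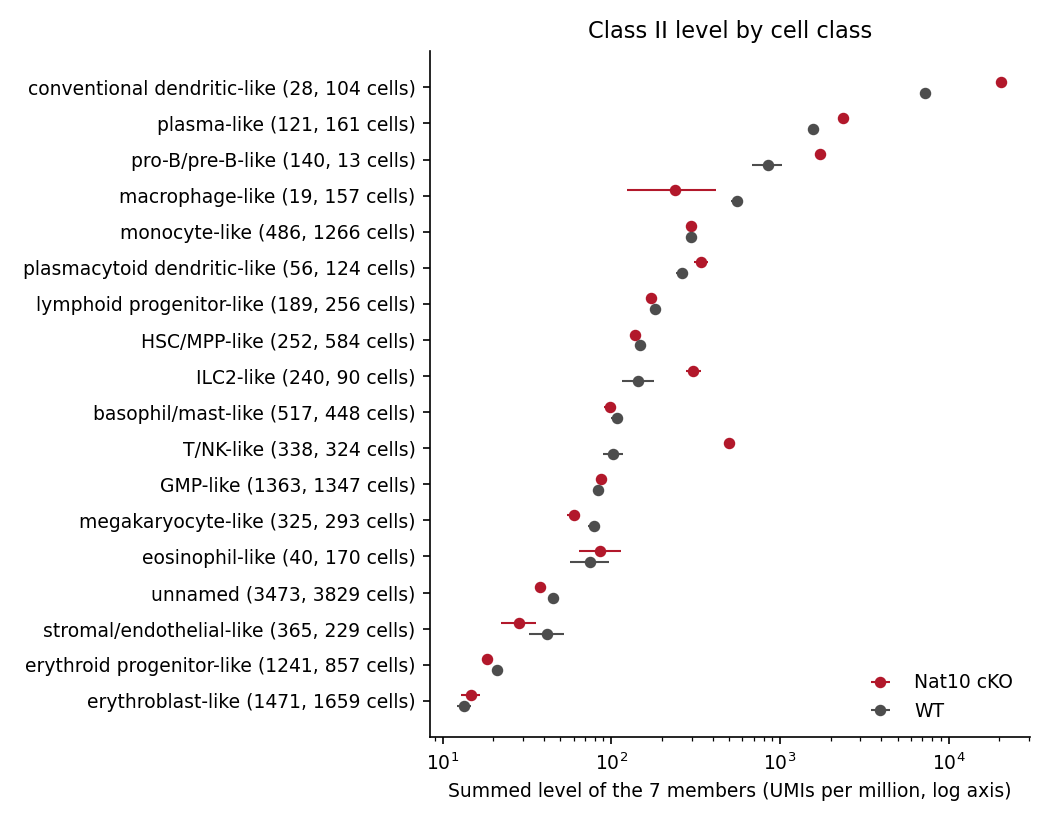
Summed level of the 7 members per cell class in CPM (x axis, log scale), with Nat10 cKO in red above WT in grey; bars are exact Poisson 95% intervals for counting error, and cell numbers are cKO, then WT. Monocyte-like cells sit at 296 CPM in cKO and 297 CPM in WT, and T/NK-like cells at 502 CPM in cKO and 102 CPM in WT.

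Counting only the 11 classes that had 100 or more cells in each library, none was lower in cKO by 1.5-fold, and 2 were higher, plasma-like and T/NK-like cells. The plasma-like ratio of 0.59 lay close to the limit and missed it with the stricter cell filter (0.48), at resolutions 0.8 (0.45) and 2.5 (0.54), by marker score (0.56) and in the WT cluster mix (0.35). In HSC/MPP-like, lymphoid progenitor-like, GMP-like and monocyte-like cells, the log2 ratios of the sum were −0.09 (−0.20 to 0.02), −0.08 (−0.20 to 0.05), 0.06 (−0.01 to 0.12) and −0.01 (−0.06 to 0.05). Megakaryocyte-like cells were at −0.40 (−0.59 to −0.22). These values depended on the clustering: monocyte-like cells were at −0.55 at resolution 0.8 and −0.79 at 2.5, and HSC/MPP-like cells at −0.67 at resolution 0.8.

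The genes behind the sum differed by class. The DM pair gave 83.0% of the member UMIs in cKO and 74.4% in WT in HSC/MPP-like cells, and 81.2% in cKO and 76.9% in WT in GMP-like cells. In conventional dendritic-like cells it gave 4.67% in cKO and 8.44% in WT, and there the 3 chains gave 50.8% in cKO and 49.5% in WT and Cd74 41.7% in cKO and 40.3% in WT. In plasma-like cells Cd74 alone gave 92.6% in cKO and 89.4% in WT, while Ciita had 0 UMIs in cKO and 1 in WT. Erythroid progenitor-like cells had the highest share of H2-Ab1, at 46.7% in cKO and 41.1% in WT, before erythroblast-like cells at 32.5% and 29.3%. The former had 23.4 UMIs of H2-Ab1 per UMI of H2-Aa in cKO and 14.6 in WT. Such an excess was not particular to them. It was 11.5 in cKO and 12.3 in WT in GMP-like cells, and 17.1 in cKO in basophil/mast-like cells. In WT the basophil/mast-like value lay above that of erythroid progenitor-like cells. In conventional dendritic-like cells those 2 chains came at 1.09 in cKO and 1.01 in WT.

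**Figure D3:**
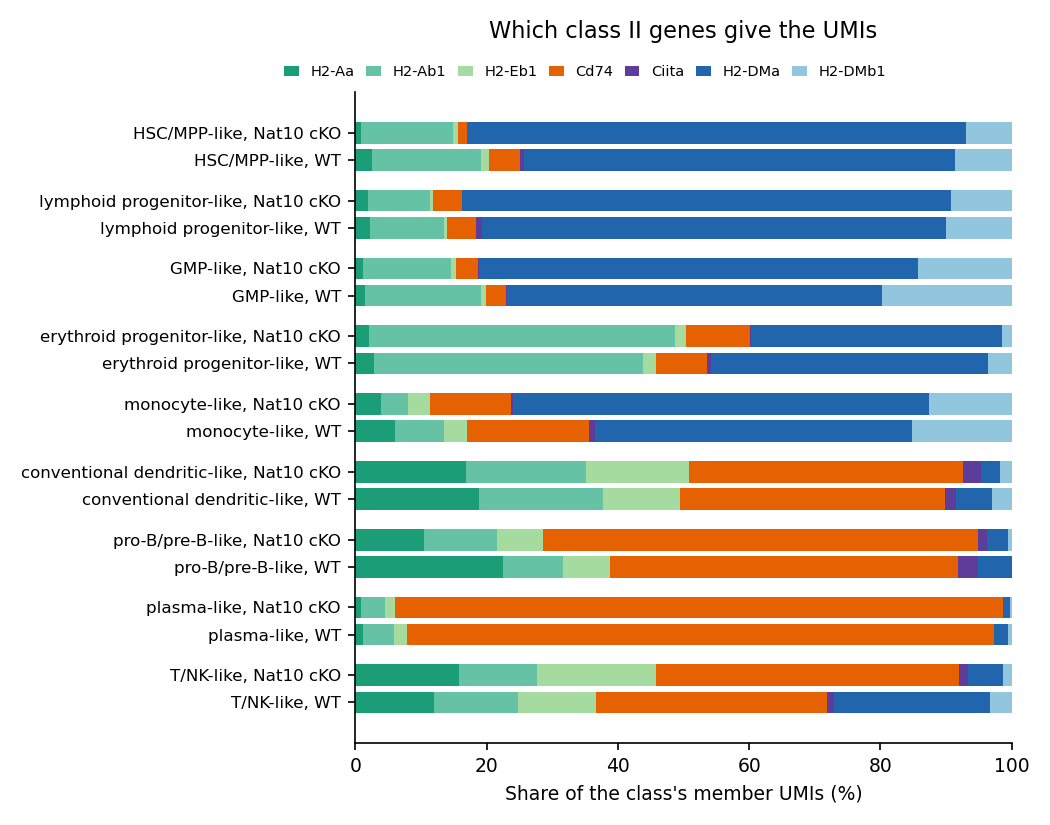
Share of a class's member UMIs that each of the 7 genes gave, in percent (x axis), for 9 classes, each with Nat10 cKO above WT. H2-DMa fills most of the bar in HSC/MPP-like, lymphoid progenitor-like and GMP-like cells, and Cd74 gives 92.6% in cKO and 89.4% in WT in plasma-like cells.

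Across 34 points, each a class in 1 library with at least 20 cells, log2(CPM + 1) of H2-Aa followed that of H2-Eb1 with a Pearson r of 0.97, and Cd74 followed H2-Eb1 with 0.95. H2-DMa and H2-DMb1 went together with 0.92, but Cd74 and H2-DMa with 0.44. That was the lowest pair, and the chains and the DM pair reached 0.72 with H2-Ab1 and H2-DMb1. Ciita was at 0.74 with Cd74 and 0.87 with H2-Aa, and at 0.46 with H2-DMa and 0.55 with H2-DMb1. The chains with Cd74 and Ciita are set apart from the DM pair here, but the split was not sharp. It was made after these values were seen. The points share 2 libraries, so the values are a description. Of 14481 genes ranked, those most like the summed members over the same points were Btla (r = 0.88), Cd83 (0.86), Cdc42se2 (0.85), Ero1b (0.84), Irf5 (0.84), Ctss (0.83), Dpp4 (0.81), H2-M3 (0.81), Phf11b (0.80) and Hdac9 (0.80).

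Conventional dendritic-like cells were few, 28 in cKO and 104 in WT, and fell into 3 clusters. Cluster c40 expressed Xcr1, Cadm1 and Clec9a, genes of the cross-presenting subset cDC1, and held 17 cKO and 11 WT cells. In it the sum was 29696 CPM in cKO and 24287 CPM in WT, a log2 ratio of 0.29 (0.23 to 0.35). Single cells ranged from 5518 to 46183 CPM with a median of 28011 in cKO, and from 10106 to 34390 CPM with a median of 21407 in WT. The cells of the 2 libraries overlapped over most of this range.

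Cluster c8s1, with Batf3, Ifi205 and Naaa among its leading genes, held 5 cKO and 53 WT cells, with 13451 CPM in cKO and 10058 CPM in WT. Its log2 ratio was 0.42 (0.32 to 0.52), and its WT cells ranged from 157 to 23188 CPM. Cluster c8s5, led by Upb1 and including Itgax among its leading genes, held 6 cKO and 40 WT cells, with 624 CPM in cKO and 634 CPM in WT. The log2 ratio of the class as a whole was 1.5 (1.46 to 1.54), but 0.37 with the cKO clusters weighted as in WT: most cKO cells of the class were in the cluster with the highest level, and most WT cells in the other 2. Taking the class as a whole, 6 of 7 members were higher in cKO past 1.5-fold, against a background of 9.28%.

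**Figure D4:**
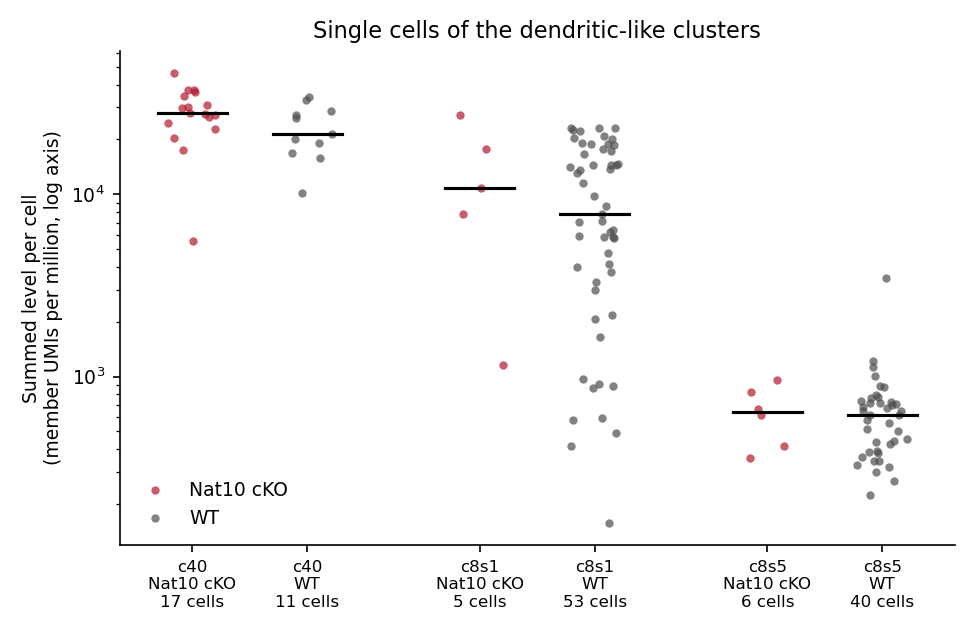
Summed level of the 7 members in each cell of the 3 conventional dendritic-like clusters, in CPM of that cell (y axis, log scale), with Nat10 cKO left of WT in each cluster; black lines are medians. Medians in c40 are 28011 CPM in cKO and 21407 CPM in WT, and in c8s5 642 CPM in cKO and 615 CPM in WT.

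Within c40, Ciita had 209 UMIs (856 CPM) in cKO and 81 UMIs (488 CPM) in WT, a log2 ratio of 0.80 (0.43 to 1.20). H2-DMb1 had 126 UMIs in cKO and 44 in WT, a log2 ratio of 0.95 (0.45 to 1.49). The chains and Cd74 lay closer to equal, with log2 ratios from 0.19 for H2-Aa to 0.36 for H2-Ab1. In c8s1 the ratio of Ciita was 0.81 (0.03 to 1.46), from 20 UMIs in cKO and 150 in WT. These clusters had under 20 cells in at least 1 library, so the values describe a handful of cells.

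In monocyte-like cells, 486 in cKO and 1266 in WT, the sums differed little, with H2-DMa above 0 and the other members below it on the log2 scale. H2-DMa, the DM alpha chain, had 2081 UMIs (187 CPM) in cKO and 5085 UMIs (144 CPM) in WT, a log2 ratio of 0.38 (0.31 to 0.46). H2-DMb1 was at −0.27. The other 5 members together had 788 UMIs (70.9 CPM) in cKO and 3831 UMIs (108 CPM) in WT, a log2 ratio of −0.61 (−0.72 to −0.50). With the 4 cKO and 20 WT cells of at least 50 member UMIs left out, that ratio was −0.58 (−0.78 to −0.39).

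Past 1.5-fold, 4 of 7 members were lower in cKO in this class, against a background of 5.68%. These were Ciita with 11 UMIs in cKO and 92 in WT (−1.34), H2-Ab1 with 135 and 780 (−0.85), H2-Aa with 127 and 633 (−0.64), and Cd74 with 406 and 1949 (−0.59), cKO first in each. H2-Eb1 was at −0.11 (−0.44 to 0.19). By cluster, the DM pair was lower in none of 7 monocyte-like clusters, and the other 5 members were lower in 6 of 7. In c14, the largest, with 178 cKO and 611 WT cells, the other 5 members had 7.77 CPM in cKO and 10.5 CPM in WT. In c8s2, with 89 cKO and 66 WT cells, they had 447 CPM in cKO and 839 CPM in WT. The clusters ranged from c8s0, with 21.5 CPM in cKO and 318 CPM in WT (−3.86), to c27.1, with 19.6 CPM in cKO and 9.27 CPM in WT (1.05, 0.10 to 2.15). In c8s0, 4 WT cells had at least 50 UMIs of the 7 members, while the highest cKO cell had 22. Median counts of the 7 members there were 8 UMIs in cKO and 7 in WT. Of all such high cells in the class, 18 of 20 in WT and 2 of 4 in cKO had at least 3 conventional dendritic markers. By the same count, 19 of 20 in WT and 0 of 4 in cKO had monocyte markers. Their median depths were 13222.5 UMIs in WT and 2663 in cKO, so the marker counts are not matched for depth. The part of these high cells in the ratios was not tested. With cKO clusters weighted as in WT, the other 5 members were at −1.15 and H2-Aa at −1.54. Cd74 taken alone was lower in 5 of the 7 clusters, and in c14 it was the higher one in cKO, with 19 UMIs in cKO and 51 in WT (0.56, −0.31 to 1.32). The summed level of 13 conventional dendritic markers in the class was 224 CPM in cKO and 245 CPM in WT, and that of 11 monocyte markers 3630 CPM in cKO and 3993 CPM in WT; their part in the result was not tested. Of the turnover and co-stimulation list, the lowest ratios in this class were those of Cd83 (−0.88), a surface protein of mature dendritic cells, and Cd80 (−0.78), a ligand of CD28, and the highest were those of Marchf1 (0.42) and Cd40 (−0.12).

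HSC/MPP-like cells, 252 in cKO and 584 in WT, had a DM pair at 0.07 (−0.05 to 0.20) and the other 5 members at −0.67 (−0.94 to −0.42). H2-DMa was present in 84.9% of cKO and 77.1% of WT cells and had 106 CPM in cKO and 97.3 CPM in WT, a log2 ratio of 0.12 (−0.01 to 0.25). The value of the pair is mostly that of H2-DMa. H2-DMb1 had 69 UMIs in cKO and 169 in WT, and H2-DMa had 10.8 UMIs per UMI of H2-DMb1 in cKO and 7.63 in WT. Cd74 had 14 UMIs (1.99 CPM) in cKO and 95 UMIs (7.16 CPM) in WT, a log2 ratio of −1.81 (−2.77 to −1.03). It was found in 13 cKO cells (5.16%) and 67 WT cells (11.5%), with at most 2 UMIs in a cKO cell and 6 in a WT cell, at median depths of 27296 UMIs in cKO and 20637 in WT. In erythroblast-like cells 2.58% in cKO and 2.95% in WT had a Cd74 UMI, with 55 UMIs in cKO and 50 in WT. Their median depths were 5269 UMIs in cKO and 20067 in WT. The shares of the 2 classes are thus not matched for depth, and whether Cd74 in cKO HSC/MPP-like cells lay above this background was not tested.

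H2-Aa had 9 UMIs in cKO and 50 in WT in these cells, a log2 ratio of −1.50 (−2.77 to −0.52). Most UMIs of the 5 members other than the DM pair were those of H2-Ab1, with 137 in cKO and 326 in WT. It was found in 36.1% of cKO and 35.3% of WT cells, so the members did not differ alike. H2-Eb1 had 7 UMIs in cKO and 22 in WT. Ciita had 0 UMIs in cKO, which allows up to 0.426 CPM (3 UMIs over the cKO cells), and 10 UMIs in WT, or 0.754 CPM (0.362 to 1.39). The WT level was 1.77 times the level that 0 UMIs allow in cKO, but its interval reached below that level. With 10 UMIs in WT and 1 library per genotype, whether the level differed was not tested. In lymphoid progenitor-like cells Ciita had 0 UMIs in cKO, which allows up to 0.595 CPM, and 11 UMIs in WT, or 1.57 CPM (0.783 to 2.81). Of the 5 members with at least 50 UMIs in HSC/MPP-like cells, 2 were lower past 1.5-fold, H2-Aa and Cd74, against a background of 14.1%.

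Cluster c13, led by Mecom and Hlf, held 98 cKO and 420 WT cells. There Cd74 had 7 UMIs in cKO and 89 in WT, a log2 ratio of −1.72 (−3.17 to −0.71). Cluster c10.2, with 110 cKO and 24 WT cells, had 7 Cd74 UMIs in cKO and 1 in WT. Taken by cluster, Cd74 was lower in cKO in 2 of 4 HSC/MPP-like clusters, and c13 held 89 of its 95 WT UMIs. The other 5 members were lower in 3 of 4, with log2 ratios of −0.61 in c13, −0.19 in c10.1 and 0.08 in c10.2. The intervals in c10.1 (−0.95 to 0.51) and c10.2 (−0.70 to 1.03) spanned 0. In c10.3, with 4 cKO and 55 WT cells, these members had 0 UMIs in cKO and 28 in WT. With cKO clusters weighted as in WT the class ratio of Cd74 was −1.81, a value that rests mostly on c13. Beside it, the summed level of 13 conventional dendritic markers was 158 CPM in cKO and 211 CPM in WT, with Cd209a, Xcr1 and Ifi205 at 0 in cKO and no marker at 0 in WT. The 11 monocyte markers summed to 179 CPM in cKO and 323 CPM in WT, and the 10 macrophage markers to 7.53 CPM in cKO and 31.4 CPM in WT; their part in the result was not tested.

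**Figure D5:**
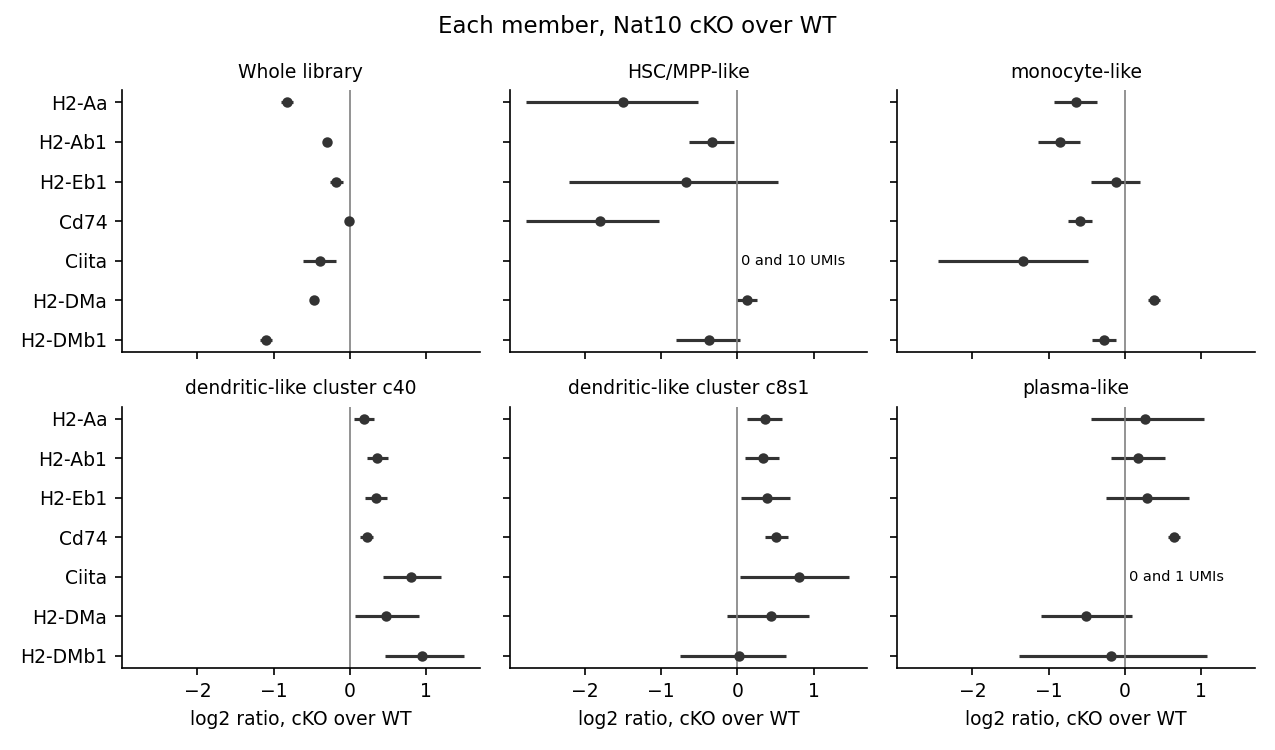
Log2 ratio of Nat10 cKO over WT for each member (x axis) in the whole library, in 3 classes and in 2 dendritic-like clusters; bars are 95% intervals for counting error, and numbers stand for a ratio where a library has 0 UMIs, cKO first. In monocyte-like cells H2-DMa lies at 0.38 and Cd74 at −0.59, and in HSC/MPP-like cells H2-DMa lies at 0.12 and Cd74 at −1.81.

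Plasma-like cells, 121 in cKO and 161 in WT, differed mainly in Cd74, which had 4331 UMIs (2193 CPM) in cKO and 2110 UMIs (1401 CPM) in WT, a log2 ratio of 0.65 (0.57 to 0.72). It was the 1 member of 5 with at least 50 UMIs that was higher past 1.5-fold, against a background of 3.85%. Both clusters of the class tied with the lymphoid progenitor list, which holds Ighm, and they were filled differently. Cluster c41 held 97 cKO and 44 WT cells, and there the sum was 2599 CPM in cKO and 1951 CPM in WT (0.41). The shallow cluster c33, with a median of 1810 UMIs, held 24 cKO and 117 WT cells, and there the sum was 176 CPM in cKO and 407 CPM in WT (−1.19). The class ratio of the sum, 0.59, thus covered clusters on both sides of 0.

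T/NK-like cells, 338 in cKO and 324 in WT, had the largest ratio among the 11 classes, with a sum of 863 UMIs (502 CPM) in cKO and 210 UMIs (102 CPM) in WT (2.30, 2.08 to 2.52). Of the 5 members with at least 50 UMIs, 4 were higher past 1.5-fold, against a background of 9.92%. Cd74 had 399 UMIs in cKO and 74 in WT, H2-Eb1 156 and 25, and H2-Aa 136 and 25, cKO first. H2-DMa had 47 UMIs in cKO and 50 in WT (0.17).

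The 5 highest cells held 39.0% of these UMIs in cKO and 52.4% in WT, and without the 8 cKO cells and 1 WT cell of at least 50 member UMIs the ratio of the sum was 1.58. It was 1.55 with doublets kept, 1.69 in the WT cluster mix and 0.79 with classes set by marker score. Cluster c11, led by the natural killer genes Ncr1 and Klrb1c, held 803 of the UMIs in cKO and 165 in WT. Of the 8 high cKO cells, 7 had at least 3 monocyte markers and 5 at least 3 T/NK markers. By the same count 1 had conventional dendritic markers, 0 had pro-B/pre-B markers and 0 had plasma markers. How many other cells of the class met these counts is not given, so the counts assign no cell type. The 9 mature B cell markers summed to 36.7 CPM in cKO and 11.2 CPM in WT in the class, with Cr2 at 0 in cKO and Fcer2a, Fcmr and Ighd at 0 in WT. The 9 pro-B/pre-B markers summed to 41.3 CPM in cKO and 7.30 CPM in WT, with Igll1 at 0 in both. Their part in the result was not tested.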

How the data were processed

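Members and gene lists were chosen with earlier results of these data known. UMI counts per gene and barcode were used as deposited, whole numbers in 1 matrix per library; per the submitters' processing notes, the authors made them with Cell Ranger 7.1.0 on mm39. The deposited barcodes had been filtered by a rule not given in the sources used. Depth was 267401978 UMIs in the kept cKO barcodes and 284447821 in the kept WT barcodes.

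Scrublet in scanpy 1.11.5 (expected share 8%) called 544 cKO (4.84%) and 592 WT (4.72%) doublets, which stay in the whole-library values only. Both libraries were clustered together: 10000 scaled UMIs per cell, 2000 variable genes, 30 principal components, 15 neighbours, Leiden resolution 1.5. Clusters were named for whichever class put most markers among the 10 leading genes, given 3 or more markers detected at 2-fold or more, and tied clusters of 200 cells or more were split at resolution 0.5. Added after clusters were seen, a cluster with no leading marker took the class with the largest share of markers detected, if at least 50%, and the cluster with 469 of the 1420 cells that had 3 or more dendritic markers was split. Of 60 clusters 48 were named; no mature B cell cluster was found. Among monocyte-like clusters, c8s0 and c8s4 tied with the dendritic list, and c8s3 had no monocyte marker among its leading genes.

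UMIs were summed per library and scaled to CPM; log2 ratios are cKO over WT with 0.5 added to each sum. A gene was called at 1.5-fold where the libraries held 50 or more UMIs of it in sum. Intervals are exact Poisson, binomial and conditional binomial (scipy 1.17.1). Genes named are the 7 members, the 2 highest and 2 lowest of each list, and the 10 most like the members; other genes were named after their values were seen, and some genes of the lists are not reported here. The formulas for ratios and intervals were run on simulated Poisson counts, drawn per gene and library. These lack the uneven spread of UMIs over cells seen here, so the run does not check the intervals for these data. Alternatives covered TMM (edgeR 4.0.16) and median-of-ratios scaling, filters, thinning, resolutions, doublets and cells left out.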

Additional observations from a re-analysis of the deposited data

Results flagged for a closer look

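In T/NK-like cells the summed log2 ratio of the 7 members was 2.30, and in plasma-like cells it was 0.59. It was below 0 in 7 of the other 9 classes that had 100 or more cells in each library. Stromal/endothelial-like cells were lowest at −0.55, on 71 member UMIs in each library, before megakaryocyte-like cells at −0.40. Among the 7, the intervals of HSC/MPP-like, lymphoid progenitor-like, monocyte-like and basophil/mast-like cells spanned 0. Monocyte-like cells turned to 0.17 without cells of at least 50 member UMIs. T/NK-like and plasma-like cells were flagged for their opposite direction, and with 1 library per genotype the difference between classes was not tested. Barcodes that missed the filter held 201 member UMIs (49.1 CPM) in cKO and 367 UMIs (95.2 CPM) in WT, and the cKO level was the lower one.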

How the results depend on the processing

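The summed log2 ratio of the whole library, −0.37, kept its sign with TMM (−0.26) and median-of-ratios scaling (−0.26), with every cell weighing alike (−0.050), without dendritic-like (−0.27), monocyte-like (−0.25), pro-B/pre-B-like (−0.41), plasma-like (−0.51) or both plasma-like and pro-B/pre-B-like cells (−0.57), and without barcodes of at least 50 member UMIs (−0.33). It reversed with the cKO classes weighted as in WT (0.65) and with the clusters so weighted (0.051). Under the class mix H2-Aa (0.92), H2-Ab1 (0.65), H2-Eb1 (1.55), Ciita (1.39) and H2-DMa (0.16) reversed, 0 members were lower past 1.5-fold and 5 higher; under the cluster mix H2-Eb1 (0.17), Ciita (0.12) and H2-DMa (0.076) reversed. H2-Eb1 also reversed with every cell weighing alike (0.31) and without barcodes of at least 50 member UMIs (0.31), as did H2-Ab1 without them (0.0068). Cd74, whose interval spans 0, ranged from −0.67 without plasma-like and pro-B/pre-B-like cells to 1.01 in the WT class mix, with 0.40 for cells alike. Weighing cells alike or a 2-fold rule left 1 member lower.

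In dendritic-like cells the sum was 1.66 with TMM and 1.66 with median-of-ratios scaling, 1.33 with cells alike, 1.07 at resolution 0.8, 1.35 at 2.5, 0.67 by marker score, 0.50 without cells of at least 50 member UMIs, 0.37 in the WT cluster mix, and by cluster 0.29 (c40), 0.42 (c8s1) and −0.011 (c8s5). In HSC/MPP-like cells it was 0.062 with TMM and 0.062 with median of ratios, and −0.67 at resolution 0.8. In plasmacytoid dendritic-like cells it reversed at resolution 2.5 (−0.29) and by marker score (−0.17). Where the reported interval spans 0 the sign also changed in GMP-like cells (−0.10 at resolution 2.5, −0.13 by marker score, −0.17 in the WT cluster mix), lymphoid progenitor-like cells (0.24, 0.27 and 0.19 at resolutions 0.8 and 2.5 and by marker score) and erythroblast-like cells (−0.16 at resolution 2.5, −0.23 in the WT cluster mix). Monocyte-like cells were at −0.55 at resolution 0.8, −0.79 at 2.5 and 0.33 with cells alike. Classes lower past 1.5-fold numbered 1 with cells alike and at both other resolutions; those higher numbered 3 with cells alike and 1 with the stricter filter, at both other resolutions and without cells of at least 50 member UMIs. The share ratio of cells with at least 2 members was 0.814 without thinning, 0.807 for at least 1 member and 1.16 without dendritic-like and monocyte-like cells. Of the values for single members and the other classes, 150 stayed within the 95% counting interval of the reported value, 73 moved beyond it, and 13 whose reported interval excludes 0 changed sign. Where not named above, the cause was not tested. No paired analysis was possible because each genotype has 1 library, and leaving out a replicate was not possible either. Few cells or UMIs limit several values, such as 12 UMIs in cKO macrophage-like cells and 13 WT pro-B/pre-B-like cells.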

Other observations

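ILC2-like cells, 240 in cKO and 90 in WT, had too few WT cells to stand among the classes counted above. Their members summed to 307 CPM in cKO and 145 CPM in WT (log2 ratio 1.08, 0.73 to 1.45), and Cd74 had 204 UMIs in cKO and 27 in WT (1.88). H2-DMa had 36 UMIs in cKO and 15 in WT (0.22, −0.66 to 1.22). Plasmacytoid dendritic-like cells, 56 in cKO and 124 in WT, had 54 Cd74 UMIs in cKO and 46 in WT (1.34, 0.75 to 1.95) and 258 H2-DMa UMIs in cKO and 468 in WT (0.26), at 0 Ciita UMIs in cKO and 3 in WT. A single cKO cell held 19.4% of that class's member UMIs, and without it the sum of the 7 was at 0.074, beside 0.37 with it. In megakaryocyte-like cells Cd74 had 53 UMIs in cKO and 20 in WT (1.20) and H2-DMa 252 UMIs in cKO and 354 in WT (−0.67), the reverse of the directions in monocyte-like cells. Without the 1 cKO cell of at least 50 member UMIs the sum of the 7 in that class was at −0.56. That cell held 51 member UMIs. Whether the higher Cd74 in cKO rests on that cell was not tested.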
